A study of Mus musculus with 31 samples.

Results

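Fmr1, its 2 paralogs and 5 genes of proteins known to bind the Fmr1 product FMRP were followed through mRNA, ribosome footprints and translational efficiency in mouse cortex. The 8 genes were taken by name from the 20436 genes counted, and all 8 passed the filter on low counts in each measure. The paralogs are Fxr1 and Fxr2, and the partners are Cyfip1, Cyfip2, Nufip1, Nufip2 and Caprin1. Ribosome profiling sequences the pieces of mRNA that ribosomes shield from nuclease, called footprints, and polyA mRNA sequencing gives the amount of transcript. Translational efficiency (TE) is here the footprint level divided by the mRNA level of the same gene.

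Cortices of mice aged 29 to 34 days after birth were compared in 4 genotypes: wild type (WT), Fmr1-deficient (FXS), Rps6kb1-deficient (S6K1) and deficient in both genes (DKO). Rps6kb1 encodes S6K1, a kinase downstream of mTOR signalling that phosphorylates ribosomal protein S6. The alleles, the strain and the sex of the animals are not given in the sources used here, and neither is whether a library holds 1 animal or a pool. Each genotype had 4 mRNA libraries. WT had 4 footprint libraries, FXS 5, and S6K1 and DKO 3 each. Nothing in the labels says that libraries of a genotype came from separate animals, so p-values measure the spread between these libraries, which may be technical. Total counts ran from 12.1 to 17.3 M per mRNA library and from 16.6 to 34.9 M per footprint library, M being the number of counts that CPM values below refer to. Each mRNA batch of the labels, 5 to 8, held every genotype once. In footprints, WT and FXS were missing from batch 1, DKO from batch 2 and S6K1 from batch 4. Markers of neurons were present in WT mRNA, for example Slc17a7, the vesicular glutamate transporter, with a mean of 1969 CPM (counts per M of the scaled library total), and Snap25, a synaptic vesicle fusion protein, with a mean of 2089 CPM. Rps6kb1 footprints were between 7.62 and 12.8 CPM in S6K1 and DKO libraries and between 26.1 and 36.3 CPM in WT and FXS libraries.

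FMRP is an RNA-binding protein that associates with ribosomes and restrains the translation of many neuronal mRNAs, and its loss causes fragile X syndrome. FXR1 and FXR2 share its RNA-binding domains and can form complexes with it, so they are the usual candidates for taking over its work. CYFIP1 and CYFIP2 bind FMRP and are also subunits of the WAVE complex, which drives actin assembly. NUFIP1 and NUFIP2 were found as FMRP-interacting RNA-binding proteins, and CAPRIN1 is a component of neuronal RNA granules and stress granules. The comparisons ask whether any of these genes is raised when Fmr1 is missing, in mice with S6K1 (FXS against WT) and without it (DKO against S6K1).

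The genes lie apart in the genome, with coordinates of GRCm38 (mm10) from RefSeq. Fmr1 spans 68678536 to 68717963 on chromosome X, Fxr1 34020058 to 34069980 on chromosome 3 and Fxr2 69632971 to 69653297 on chromosome 11. Cyfip1 spans 55842022 to 55932633 on chromosome 7, Nufip1 76110891 to 76137379 on chromosome 14 and Caprin1 103762945 to 103797669 on chromosome 2. Cyfip2 (46193849 to 46312859) and Nufip2 (77685764 to 77717966) are also on chromosome 11, so 3 of the 8 genes share a chromosome with Rps6kb1. Their distances from Rps6kb1 are 8.78 Mb for Nufip2, 16.8 Mb for Fxr2 and 40.2 Mb for Cyfip2. Sequence that travels with the Rps6kb1 allele can therefore not be told apart from the loss of S6K1 for these genes.

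To show how far the regulatory sequence of Fmr1 resembles that of its paralogs, the last 120 bases before the start of the first RefSeq transcript entry are given for the 3 paralogs, in the sense direction. Promoter sequence was found for 7 of the 8 genes, all but Cyfip1. Capitals mark matches on either strand to the Sp1 GC box GGGCGG, the E-box CACGTG and the NRF1 core GCGCATGC, and matches that overlap run together. The windows are chrX:68678421-68678540, chr3:34019959-34020078 and chr11:69632851-69632970, all on the plus strand. The ends of the Fmr1 and Fxr1 windows lie inside the gene spans given above, since the transcript entry used starts after the first base of the span.
Fmr1: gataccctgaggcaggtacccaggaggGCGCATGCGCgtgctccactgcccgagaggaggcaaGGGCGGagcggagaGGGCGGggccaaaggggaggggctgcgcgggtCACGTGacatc
Fxr1: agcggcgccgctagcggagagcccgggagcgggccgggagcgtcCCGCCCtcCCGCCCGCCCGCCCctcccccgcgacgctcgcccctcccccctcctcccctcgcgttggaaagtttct
Fxr2: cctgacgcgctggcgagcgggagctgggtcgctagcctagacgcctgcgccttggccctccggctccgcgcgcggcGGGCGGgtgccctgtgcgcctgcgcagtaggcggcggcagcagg
In the 250 bases before the start, the Fmr1 sequence held 2 GC boxes, 1 E-box that ends 5 bases from the start, and 2 overlapping matches to the NRF1 core, 1 on each strand. The Fxr1 sequence held 7 GC boxes, some of them overlapping, and the Fxr2 sequence 2, and neither held the E-box or the NRF1 core letters. Among all 32851 promoters of the RefSeq table, 32.7% held a GC box, 6.02% the E-box and 2.26% the NRF1 core in a window of that length. GC content was 67.2% for Fmr1, 80% for Fxr1 and 69.6% for Fxr2. A match is a description of the letters and not a binding site.

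Fmr1 itself, the gene removed in FXS and DKO, kept part of its mRNA and a smaller part of its footprints. Its mRNA was 77.6, 64.2, 72.9 and 55.6 CPM in the WT libraries and 22.1, 13.05, 16.1 and 14.5 CPM in the FXS libraries. In S6K1 it was 82.6, 73.8, 65.8 and 69.1 CPM, and in DKO 21.6, 14.3, 10.6 and 14.9 CPM. All libraries of the genotypes without Fmr1 lay far below all libraries of those with it. Fmr1 footprints were 105, 118, 138 and 106 CPM in WT and 8.20, 7.53, 8.68, 7.03 and 7.81 CPM in FXS. S6K1 had 159, 104 and 135 CPM and DKO 12.8, 10.7 and 8.03 CPM. The separation was wider than in mRNA, and the smallest counts in a library were 141 in mRNA and 131 in footprints.

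Against S6K1, Fmr1 in DKO fell by 2.26 on the log2 scale in mRNA (standard error, SE, 0.115) and by 3.68 in footprints (SE 0.122). Its TE fell by 1.42 (SE 0.181), with an adjusted p of 0.000288 in edgeR's quasi-likelihood test over all 13654 genes. Fmr1 was the only gene of 13953 that passed in footprints and the only gene that passed in TE in that comparison. Against WT, Fmr1 in FXS fell by 2.05 in mRNA, 3.88 in footprints and 1.84 in TE, all past the threshold. The reads left in FXS and DKO thus carried fewer footprints per transcript than in WT. The ratio of footprints to mRNA was 0.478 in FXS and 0.685 in DKO against 1.73 in WT and 1.83 in S6K1. Such ratios are, here and below, of mean CPM per genotype with no adjustment for batch, so they can differ from the modelled TE changes. The WT ratio stood at percentile 86.0 of all genes tested and the FXS ratio at percentile 26.7. Which exons the remaining reads come from was not tested.

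Whether the fall of Fmr1 differed with and without S6K1 was tested as the interaction, defined as the change from S6K1 to DKO minus the change from WT to FXS. It was -0.21 in mRNA (95% interval -0.55 to 0.13), 0.20 in footprints (-0.14 to 0.54) and 0.42 in TE (-0.08 to 0.92), none past the threshold. By mean CPM, not adjusted for batch, the levels of Fmr1 in order were S6K1, WT, FXS and DKO in mRNA and S6K1, WT, DKO and FXS in footprints. In either order the first pair and the last pair did not differ past the threshold. In the model with batch, S6K1 against WT gave 0.11 in mRNA (-0.11 to 0.33) and -0.01 in footprints (-0.26 to 0.24), and DKO against FXS gave -0.10 in mRNA (-0.36 to 0.16) and 0.19 in footprints (-0.08 to 0.46).

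**Figure D1:**
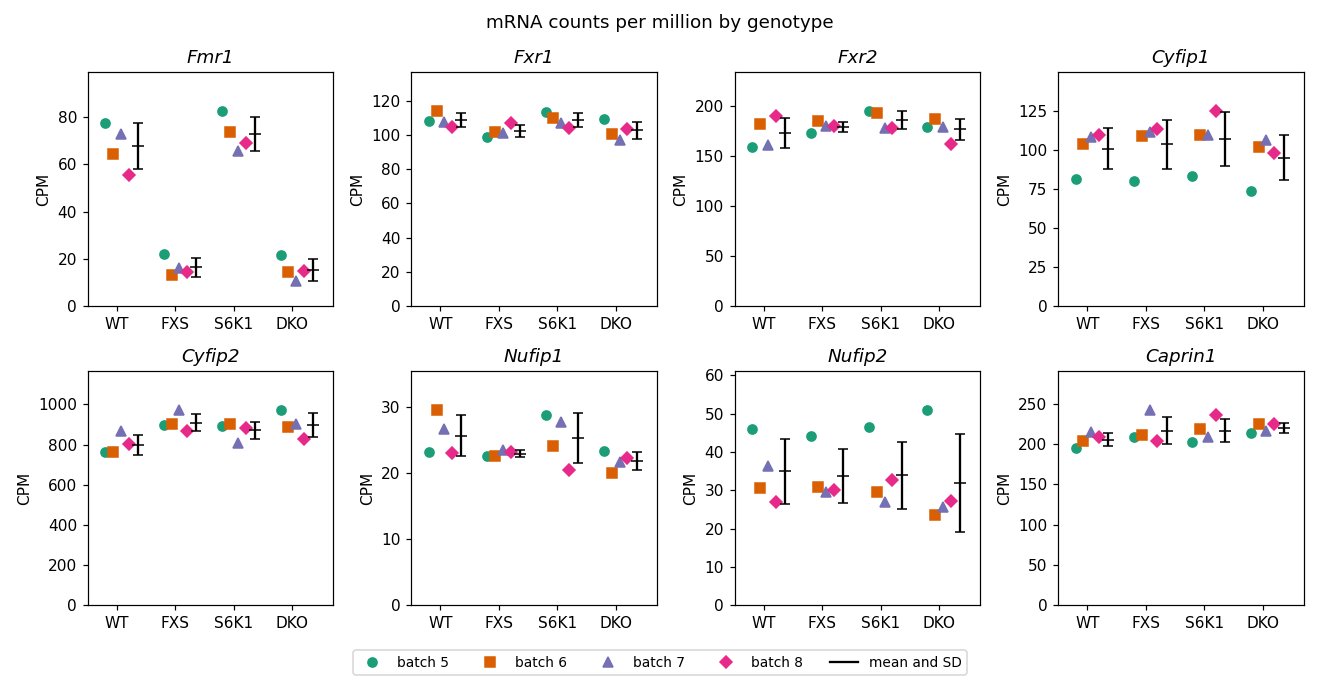
mRNA level in CPM of each of the 8 genes in each library, by genotype, with the mean and SD of 4 libraries in black and the label's batch by colour and shape. Fmr1 is at 10.6 to 22.1 CPM in FXS and DKO, while Fxr1 stays between 97.3 and 114 CPM in every library.

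In mRNA, none of the 7 paralogs and partners passed the test when Fmr1 was missing. In FXS against WT, 0 of 7 were called by edgeR, where 0.155% of all genes tested were, and DESeq2 and limma voom also called 0. At an unadjusted p under 0.05 in edgeR were 1 of 7, beside 12.7% of all genes. In DKO against S6K1, edgeR again called 0 of 7, against 0.387% of all genes, with 0 called by DESeq2 and by voom. Here 1 of 7 was at an unadjusted p under 0.05 in edgeR, beside 14.8% of all genes. The median log2 change of the 7 was 0.04 in FXS and -0.08 in DKO against S6K1, beside medians of -0.01 and -0.00 over all genes.

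Fxr1 mRNA was 108, 114, 108 and 105 CPM in WT and 98.9, 102, 101 and 107 CPM in FXS. Its 4 S6K1 libraries had 113, 110, 107 and 104 CPM, and its DKO libraries 109, 101, 97.3 and 103 CPM. The genotypes overlapped within a narrow range. The log2 change was -0.09 in FXS (95% interval -0.22 to 0.04) and -0.08 in DKO against S6K1 (-0.21 to 0.05). The upper ends of these intervals are increases of 2.96% and 3.54%, so larger rises of Fxr1 mRNA lie outside both intervals. Fxr2 mRNA was 159, 182, 161 and 190 CPM in WT and 173, 184, 180 and 180 CPM in FXS, with overlapping groups. Its change was 0.05 in FXS (-0.09 to 0.19) and -0.07 in DKO against S6K1 (-0.21 to 0.06), with upper ends of 14.3% and 4.63%.

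Cyfip2 was the partner with the smallest p in FXS mRNA. It had 763, 762, 868 and 804 CPM in WT and 895, 901, 970 and 869 CPM in FXS. Every FXS library was above every WT library, by 1.14-fold in the means, but how many of all genes separate in this way was not counted. The log2 change of Cyfip2, 0.18 (0.05 to 0.32), had an adjusted p of 0.256 in edgeR. In DKO against S6K1 the change was 0.04 (-0.10 to 0.18). Cyfip1 showed the smallest p in the other comparison, with DKO libraries at 73.9, 102, 106 and 97.9 CPM and S6K1 libraries at 83.3, 109, 109 and 125 CPM. The DKO library was the lower in 4 of 4 batches, yet the change of -0.17 (-0.30 to -0.04) had an adjusted p of 0.212 in edgeR. Cyfip1 changed by 0.04 in FXS (-0.09 to 0.17).

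Among the RNA-binding partners, Nufip1 ran from 19.99 to 29.5 CPM over the 16 libraries, with changes of -0.16 in FXS (-0.37 to 0.06) and -0.21 in DKO against S6K1 (-0.42 to 0.01). Nufip2 ran from 23.7 to 50.9 CPM, with changes of -0.05 (-0.26 to 0.16) and -0.12 (-0.33 to 0.09). Caprin1 ran from 195 to 242 CPM, with changes of 0.08 (-0.06 to 0.21) and 0.03 (-0.11 to 0.16). The genotypes overlapped for all 3 genes in both comparisons.

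**Figure D2:**
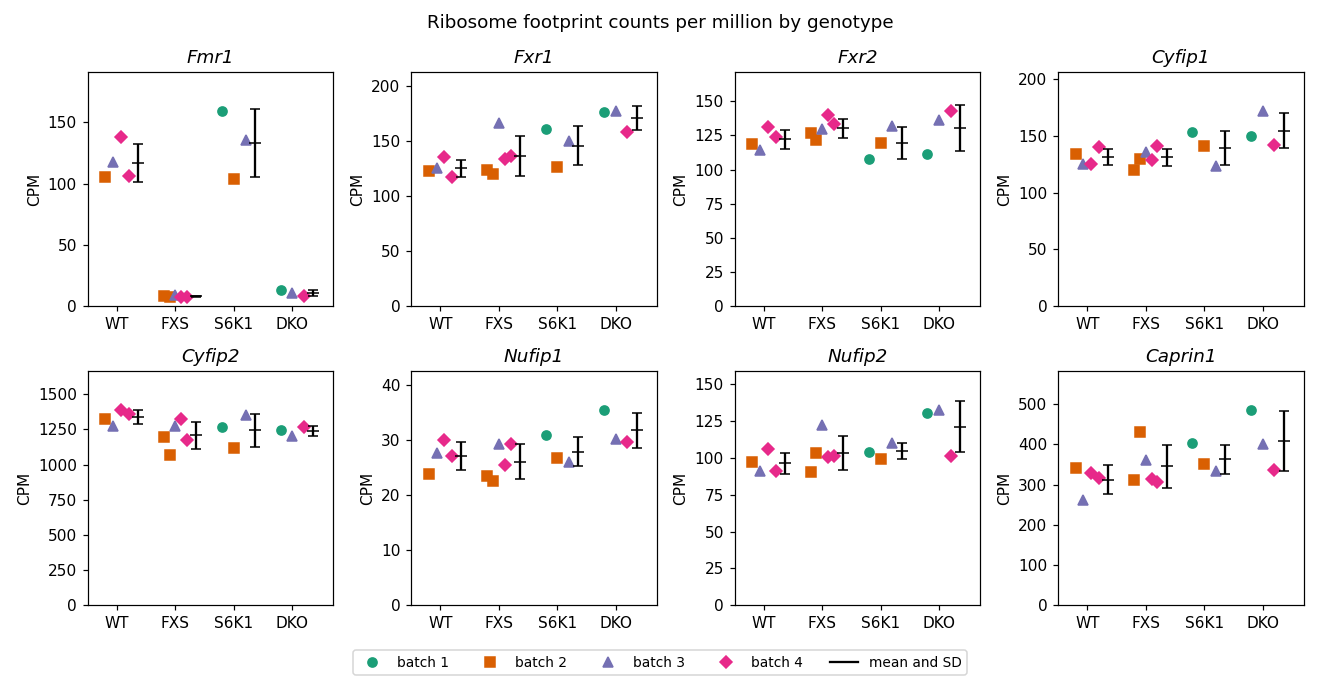
Footprint level in CPM of each of the 8 genes in each library, by genotype, with the mean and SD of 3 to 5 libraries in black and the batch by colour and shape. Fxr1 lies at 158 to 177 CPM in the 3 DKO libraries and at 118 to 135 CPM in the 4 WT libraries.

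Footprints of the paralogs and partners did not pass the test in either comparison. EdgeR called 0 of 7 in FXS against WT, where 0.165% of all genes were called. At an unadjusted p under 0.05 were 0 of 7, beside 9.87% of all genes. EdgeR called 0 of 7 in DKO against S6K1, where 0.00717% were called, with 1 at an unadjusted p under 0.05 beside 8.67% of all genes. Neither DESeq2 nor voom called any of the 7 in these comparisons. The median change of the 7 was 0.10 in FXS and 0.15 in DKO against S6K1, beside medians of -0.00 over all genes in each. The 7 changes ran from -0.13 to 0.13 in FXS and from -0.05 to 0.22 in DKO against S6K1.

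Fxr1 footprints were 123, 125, 135 and 118 CPM in WT and 124, 120, 166, 134 and 136 CPM in FXS. They were 161, 126 and 150 CPM in S6K1 and 177, 177 and 158 CPM in DKO. Neighbouring genotypes in the order WT, FXS, S6K1 and DKO overlapped, and WT and DKO did not. How many of all genes separate between WT and DKO was not counted. The change of Fxr1 was 0.13 in FXS (-0.02 to 0.29) and 0.19 in DKO against S6K1 (0.00 to 0.38). Fxr2 footprints were 119, 114, 131 and 124 CPM in WT and 127, 122, 130, 140 and 133 CPM in FXS. S6K1 had 108, 119 and 132 CPM, and DKO 111, 136 and 143 CPM. All 4 genotypes overlapped for Fxr2, with changes of 0.11 in FXS (-0.01 to 0.23) and 0.07 in DKO against S6K1 (-0.08 to 0.22).

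Cyfip1 footprints ran from 120 to 141 CPM in WT and FXS together and were 150, 172 and 142 CPM in DKO. Every DKO library was above every WT and FXS library, though S6K1 libraries, at 153, 142 and 124 CPM, overlapped with DKO. In the model Cyfip1 in DKO changed by 0.21 against WT (adjusted p 0.298 in edgeR) and by 0.21 against FXS (adjusted p 0.762 in edgeR). Cyfip2 footprints were 1326, 1270, 1386 and 1358 CPM in WT and 1243, 1200 and 1269 CPM in DKO, so here every DKO library was below every WT library. That change was -0.14 in the model (adjusted p 0.381 in edgeR). The 5 FXS libraries ran from 1071 to 1322 CPM and overlapped with WT, with a change of -0.13 (-0.27 to 0.01). Nufip1 footprints were 35.4, 30.2 and 29.7 CPM in DKO and 22.5 to 29.4 CPM in FXS, which do not overlap, while WT at 23.8 to 30.0 CPM overlapped with both. In the model Nufip1 changed by 0.15 in DKO against FXS (adjusted p 0.793 in edgeR). The 2 batches that hold both genotypes differed by 0.05 and 0.12. For such separations, here and above, the share among all genes was not counted. Nufip2 ran from 90.2 to 132 CPM and Caprin1 from 261 to 485 CPM over the 15 libraries, and for both the highest library was a DKO library.

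**Figure D3:**
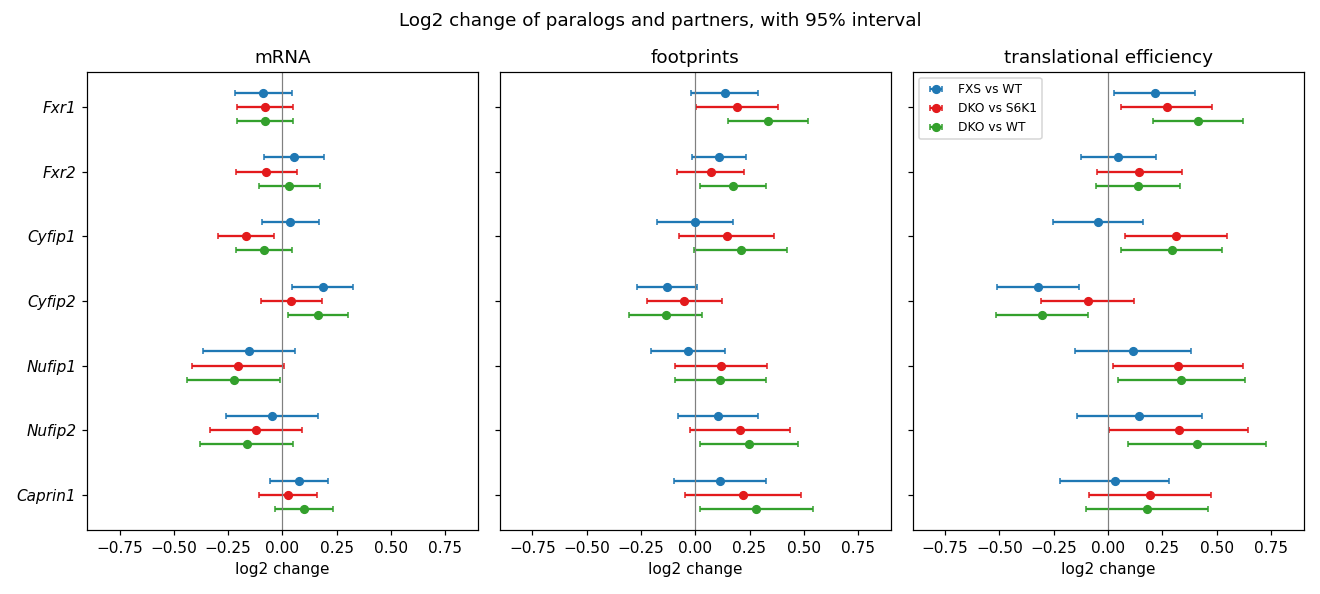
Log2 change of the 2 paralogs and 5 partners in mRNA, footprints and translational efficiency, for FXS against WT (blue), DKO against S6K1 (red) and DKO against WT (green), with 95% intervals from the edgeR model. In DKO against WT, Fxr1 has 0.41 in translational efficiency, 0.33 in footprints and -0.08 in mRNA.

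TE of the paralogs and partners also did not pass in either of these comparisons. EdgeR called 0 of 7 in FXS against WT, where 0.0952% of all genes were called, with 2 at an unadjusted p under 0.05 beside 13.4% of all genes. Voom called 0 and DESeq2 1, which was Cyfip2. In DKO against S6K1 edgeR called 0 of 7, where 0.00732% were called, with 4 at an unadjusted p under 0.05 (Fxr1, Cyfip1, Nufip1 and Nufip2) beside 14.6% of all genes, and DESeq2 and voom called 0. Of the 7 genes, 5 had a positive TE change in FXS and 6 in DKO against S6K1, with medians of 0.05 and 0.27 beside medians of -0.01 and -0.00 over all genes.

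Cyfip2 had the smallest p of the 7 in FXS. Its ratio of footprints to mRNA was 1.67 in WT and 1.33 in FXS, a log2 change of -0.32 (-0.51 to -0.13) with an adjusted p of 0.159 in edgeR. It would be called by DESeq2, with an adjusted p of 0.0336, and in none of the other 25 alternatives. In the authors' deposited table, Cyfip2 TE in FXS has a log2 change of -0.33 with an adjusted p of 0.321. Fxr1 had a TE change of 0.21 in FXS (0.03 to 0.40; adjusted p 0.313 in edgeR) and 0.27 in DKO against S6K1 (0.06 to 0.48; adjusted p 0.245 in edgeR). Fxr2 had 0.05 (-0.13 to 0.22) and 0.14 (-0.05 to 0.34). The other partners in FXS had -0.05 for Cyfip1 (-0.25 to 0.16), 0.12 for Nufip1 (-0.15 to 0.38), 0.14 for Nufip2 (-0.14 to 0.43) and 0.03 for Caprin1 (-0.22 to 0.28). In DKO against S6K1 they had 0.31 for Cyfip1 (0.08 to 0.55), 0.32 for Nufip1 (0.02 to 0.62), 0.33 for Nufip2 (0.00 to 0.65) and 0.19 for Caprin1 (-0.09 to 0.48), and Cyfip2 had -0.09 (-0.31 to 0.12).

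DKO against WT had the most genes called in each measure, and here Fxr1 passed the test in TE. This comparison shares its WT libraries with FXS against WT and its DKO libraries with DKO against S6K1. In TE, edgeR called 1 of 7 in DKO against WT, where 4.85% of all genes were called, with 5 of 7 at an unadjusted p under 0.05 beside 24.9% of all genes. In mRNA it called 0 of 7, where 5.23% were called, with 2 at an unadjusted p under 0.05 beside 22.3% of all genes, and 0 called by DESeq2 and voom. In footprints it called 0 of 7, where 0.366% were called, with 4 at an unadjusted p under 0.05 beside 17.1% of all genes, 0 called by voom and 1, Fxr1, by DESeq2. The 7 changes ran from -0.23 to 0.17 in mRNA and from -0.14 to 0.33 in footprints. The median TE change of the 7 was 0.29, with 6 positive, beside a median of -0.02 over all genes.

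Fxr1 TE rose by 0.41 on the log2 scale in DKO against WT (SE 0.101, 95% interval 0.21 to 0.62, adjusted p 0.0254 in edgeR). The unadjusted ratios of footprints to mRNA were 1.66 and 1.15, and without the batch term the change was 0.53 with an adjusted p of 0.0857 in edgeR. Its footprints had a log2 change of 0.33 (0.15 to 0.52, adjusted p 0.110 in edgeR), and its mRNA -0.08 (-0.21 to 0.05). In the 2 footprint batches that hold both genotypes the footprint difference was 0.33 and 0.50. In the authors' deposited tables, Fxr1 has 0.33 in footprints with an adjusted p of 0.0245 and 0.42 in TE with an adjusted p of 0.0321. The TE call was held in 16 of 24 alternatives, and its log2 change stayed between 0.34 and 0.53 in all 24. In edgeR the adjusted p was 0.124 without footprint library WT 2, 0.133 without DKO 2 and 0.060 without DKO 3. It was 0.0649 without mRNA library WT 2, 0.0621 without WT 3, 0.0535 without DKO 2 and 0.0633 without DKO 3. The remaining 8 libraries could each be left out with the call held.

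Markers of other cell types moved in the same comparison. Those of oligodendrocytes were also lower in footprints of FXS against WT and, with none called, of S6K1 against WT. In DKO against WT, TE of 6 of 10 oligodendrocyte markers and 2 of 5 excitatory neuron markers was lower past the threshold. Summed oligodendrocyte footprints were 2862 to 4136 CPM in WT and 1936 to 2755 CPM in DKO, and summed mRNA 1945 to 3079 and 1851 to 3311 CPM. Their summed footprints were 1837 to 2747 CPM in FXS and 2687 to 2939 CPM in S6K1. Footprints of 3 of 10 were lower past the threshold in FXS against WT, 3 in DKO against WT and 0 in S6K1 against WT. At an unadjusted p under 0.05 in edgeR were 10, 10 and 9 of them, beside 9.87%, 17.1% and 8.74% of all genes. None of the 10 had a positive footprint change in any of these comparisons, and the medians were -0.56, -0.62 and -0.47. In mRNA of DKO against WT, 1 oligodendrocyte and 1 inhibitory neuron marker were lower past the threshold. For the excitatory neuron markers the sums in WT and DKO were 1029 to 1245 and 755 to 1106 CPM in footprints, and 1743 to 2599 and 1899 to 3259 CPM in mRNA, where 2 of 5 were higher past the threshold. Summed mRNA of the 5 endothelial markers was 35.0 to 126 CPM in WT and 22.6 to 76.1 CPM in DKO, with 1 lower past the threshold. Summed footprints of the hippocampal markers were 182 to 283 CPM in WT and 120 to 165 CPM in DKO, and those of the thalamic markers 47.8 to 92.1 and 94.3 to 187 CPM, with none called. Summed footprints of the 4 Y-linked markers were 168 to 187 CPM in WT and 193 to 289 CPM in DKO, and TE of 1 of them, Eif2s3y, was higher (adjusted p 0.0467 in edgeR). Both libraries of footprint batch 1, which holds DKO and S6K1 but no WT, were at 289 CPM in that sum. Over all 4 genotypes the sum was 154 to 289 CPM in footprint libraries and 118 to 164 CPM in mRNA libraries. No Y-linked marker was at 0 in any library, so each library held male tissue. No marker of these lists was at 0 in any library of these genotypes. Their part in the Fxr1 result was not tested, and in bulk tissue fewer cells of a type and less RNA per cell cannot be told apart.

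For the other partners in DKO against WT, TE changes were 0.29 for Cyfip1 (0.06 to 0.52), 0.34 for Nufip1 (0.04 to 0.63), 0.41 for Nufip2 (0.09 to 0.73) and 0.18 for Caprin1 (-0.10 to 0.46). Cyfip2 was at -0.31 (-0.52 to -0.09), with an adjusted p of 0.0756 in edgeR and of 0.0489 in DESeq2. Nufip2 and Fxr1 thus had nearly the same TE change, but the SE of Nufip2 was 0.155. Fxr2 was at 0.14 (-0.05 to 0.33). Differences between genes were not tested.

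Loss of S6K1 left the 8 genes without a call. In S6K1 against WT, edgeR called 0 of 7 paralogs and partners in mRNA, footprints and TE, where 0.0211%, 0.00717% and 0.0293% of all genes were called. In each measure 0 were at an unadjusted p under 0.05, beside 7.37%, 8.74% and 7.51% of all genes. DESeq2 and voom called 0 in each. The 7 changes ran from -0.04 to 0.12 in mRNA, from -0.09 to 0.14 in footprints and from -0.21 to 0.14 in TE, the lowest TE value being that of Cyfip2 (-0.43 to 0.00). In DKO against FXS, edgeR called 0 of 7 in the 3 measures, where 0.0281%, 0.0143% and 0.0146% were called, and DESeq2 and voom called 0. At an unadjusted p under 0.05 in edgeR were 0, 2 and 1, beside 9.81%, 6.19% and 8.36% of all genes. The changes ran from -0.12 to 0.02 in mRNA, from -0.01 to 0.21 in footprints and from 0.02 to 0.34 in TE. Cyfip1 had the smallest p there, with a TE change of 0.34 (0.11 to 0.57) and an adjusted p of 0.544 in edgeR.

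The same interaction was tested for the paralogs and partners. EdgeR called 0 of 7 in mRNA, footprints and TE, where 0%, 0% and 0% of all genes were called, and DESeq2 and voom called 0. At an unadjusted p under 0.05 in edgeR were 1, 0 and 1, beside 3.50%, 3.07% and 4.14% of all genes. Cyfip1 accounted for both of these, with -0.20 in mRNA (-0.39 to -0.02) and 0.36 in TE (0.04 to 0.67). Over the 7 genes it ran from -0.20 to 0.01 in mRNA, from -0.04 to 0.15 in footprints and from 0.06 to 0.36 in TE. For Fxr1 the interaction was 0.01 in mRNA (-0.18 to 0.19), 0.06 in footprints (-0.19 to 0.30) and 0.06 in TE (-0.23 to 0.34).

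TE levels differed widely between the 8 genes. In WT the ratio of footprints to mRNA was 2.76 for Nufip2, at percentile 95.7 of all genes tested, 1.73 for Fmr1, 1.67 for Cyfip2 and 1.52 for Caprin1. It was 1.30 for Cyfip1, 1.15 for Fxr1 and 1.06 for Nufip1. Fxr2 was lowest at 0.706, at percentile 44.5. The order Nufip2 first and Fxr2 last, Fmr1 left out, was the same in all 4 genotypes, with Fxr2 between 0.643 and 0.737 and Nufip2 between 2.76 and 3.80. Of the paralogs, Fmr1 with its gene intact thus had the most footprints per transcript and Fxr2 the fewest.

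**Figure D4:**
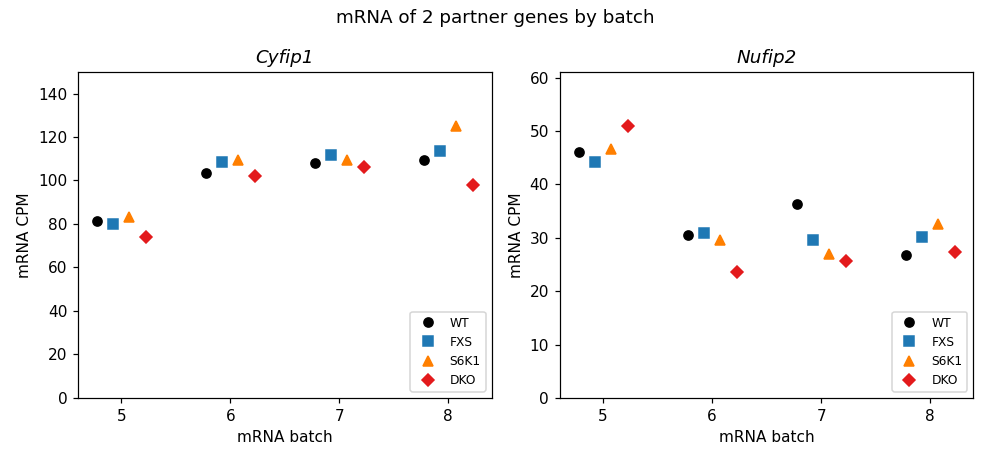
mRNA level in CPM of Cyfip1 and Nufip2 in the 16 mRNA libraries, by the label's batch, with genotypes by colour and shape. In batch 5 Cyfip1 is at 73.9 to 83.3 CPM and Nufip2 at 44.2 to 50.9 CPM, outside the range of the other batches.

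Cyfip1 and Nufip2 mRNA stood apart in 1 batch, across the genotypes. Cyfip1 averaged 79.7 CPM in batch 5 and 106 to 112 CPM in batches 6 to 8, and every batch 5 library was below every other library. Nufip2 averaged 46.9 CPM in batch 5 and 28.7 to 29.6 CPM in the other batches, with every batch 5 library above every other library. All 4 genotypes showed both shifts, as the plot of mRNA by batch shows. Fxr1 averaged 103 to 107 CPM in the 4 batches. The summed mRNA of the 5 microglial markers was 89.7 to 121 CPM in batch 5 and 305 to 389 CPM in the other batches, with no marker at 0. Summed mRNA of some other marker lists, but not of all, was also lower in every batch 5 library than in every other library. It was 317 to 440 CPM in batch 5 and 674 to 820 CPM elsewhere for astrocytes, 22.6 to 36.6 and 55.7 to 135 for endothelium, and 1800 to 1945 and 2312 to 3311 for oligodendrocytes. For excitatory neurons it was 1631 to 1911 and 2237 to 3259 CPM, for inhibitory neurons 668 to 737 and 827 to 1013, and for hippocampus 55.2 to 73.1 and 73.5 to 96.8. The ranges overlapped for the general neuron list, at 3696 to 4182 and 3683 to 4436 CPM, and for striatum, at 280 to 371 and 211 to 334. They also overlapped for thalamus, choroid plexus, cerebellum, blood and the Y-linked markers. The part of the marker shifts in those of Cyfip1 and Nufip2 was not tested.

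Among 14214 other genes, those closest in pattern to each paralog were found by Pearson correlation of log2 CPM over the 16 mRNA libraries after centring on batch, which is a description. Values were not centred on genotype, so the correlations include differences between genotypes, for Fmr1 its removal in FXS and DKO. For Fmr1 the closest were Pls3 (0.94), Pkp4 (0.94) and Akr1c18 (0.91). For Fxr1 they were Tdrd3 (0.92), Mkln1 (0.91) and Uba3 (0.90), and for Fxr2 Smg8 (0.87), Sntb2 (0.84) and Arrdc2 (0.84). Among the 8 genes, Fxr1 correlated with Nufip1 at 0.86 and with Fmr1 at 0.71, whereas Fmr1 and Fxr2 were at 0.03. Fxr1 and Fmr1 share genotype groups and library preparation in these values, and mean Fxr1 mRNA was 109 and 108 CPM in WT and S6K1, and 102 and 103 CPM in FXS and DKO.

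Other genes of the same pathways were taken from 3 lists with 45 genes, all of them tested: 10 of the WAVE complex, 24 of RNA granules and 11 that encode other FMRP-binding proteins. In FXS against WT none of the 45 was called by edgeR in any measure, with 8, 4 and 12 at an unadjusted p under 0.05 in mRNA, footprints and TE, beside 12.7%, 9.87% and 13.4% of all genes, and their medians were 0.00, 0.00 and -0.05. In mRNA the count was 1 without WT library 4, and 4 with the 2 genotypes alone, a fit that called 446 of all genes against 22. DESeq2 called 0, 1 and 0 of them, and voom 0 in each. In DKO against S6K1, 1 of 45 was called in mRNA, where 0.387% of all genes were: Ncl, the nucleolar protein nucleolin, fell by 0.33 (adjusted p 0.0299 in edgeR). That count of 1 was 0 without the batch term, with the 2 genotypes alone, without batch 5, without S6K1 library 1, 2 or 3 and without DKO library 2 or 3, 2 without S6K1 library 4, and 2 with DESeq2. None was called in footprints or TE there by edgeR, and DESeq2 and voom called 0. At an unadjusted p under 0.05 in edgeR were 7 and 11, beside 8.67% and 14.6% of all genes.

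In DKO against WT, 3 of 45 rose in mRNA and none fell, where 5.23% of all genes were called, so the share of calls was near the background. At an unadjusted p under 0.05 in edgeR were 17 of 45 in mRNA, a larger share than the 22.3% of all genes. That difference in share was not tested. Purb and Pura, which encode single-stranded nucleic acid binding proteins of neuronal RNA granules, rose by 0.45 and 0.33, and Abi2, a WAVE complex subunit, by 0.29, with adjusted p of 0.0148, 0.0404 and 0.0439 in edgeR. That count of 3 was 0 without the batch term and without WT library 2 or 3 or DKO library 3, 1 without batch 5, WT 1, DKO 1, DKO 2 or DKO 4, 2 with the 2 genotypes alone, 4 without WT 4, and 7 with DESeq2. In TE, Pabpc1, the cytoplasmic polyA-binding protein, rose by 0.56 and Pura fell by 0.58, with adjusted p of 0.0215 and 0.0278 in edgeR, 2 of 45 genes where 4.85% of all genes were called. These 2 calls became 0 without the batch term and without footprint library WT 2 or DKO 2, and 1 with the 2 genotypes alone and without mRNA library WT 2, WT 3, DKO 2 or DKO 3, while 3 genes passed without footprint library WT 3 or mRNA library DKO 4, and 4 with DESeq2. Pura thus had more mRNA and fewer footprints per transcript, with a footprint change of -0.25 (-0.51 to 0.01). The footprint change of Pabpc1 was 0.46 (0.23 to 0.69), like Fxr1 with mRNA not higher, at -0.10 (-0.24 to 0.04). In footprints edgeR called none of the 45, with 7 at an unadjusted p under 0.05 beside 17.1% of all genes. Voom called 0 and DESeq2 3, and 1 passed without footprint library WT 4.

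How reads were divided between the paralogs, and between Cyfip1 and Cyfip2, is not given in the sources used here, so values of these related genes carry that uncertainty. Protein was not measured.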

How the data were processed

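Ribosome footprints and polyA mRNA of mouse cortex were measured in 15 and 16 libraries. The deposited tables hold whole-number read counts per gene symbol, 1 column per library. The submitters' processing notes name cutadapt 2.0, Bowtie2, TopHat2, RSEM and the build mm10; their roles and settings, and the counting rules, are not given in the sources used here. The authors' deposited comparison tables hold, per the file headers, log2 fold changes and their errors, p-values before and after adjustment, a test score, and a mean signal of normalized counts on an unstated scale. Values copied from these tables are named as such.

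Counts were analysed with edgeR 4.0.16 in R 4.3.3. The filter filterByExpr on genotype removed genes of low count (14215 genes left in mRNA, 13953 in footprints), libraries were scaled by TMM (CPM values use these scaled totals), and quasi-likelihood models with robust dispersion held batch and genotype, with all 4 genotypes in 1 fit. TE was the footprint contrast minus the mRNA contrast in 1 model of all libraries over the 13654 genes that passed in both assays, with TMM over those genes and batch within assay. A gene passed where its p, adjusted by Benjamini-Hochberg across the whole table, was under 0.05. Intervals are 95% intervals from the model's SE. DESeq2 1.42.0 and limma 3.58.1 (voom) were alternatives, beside RLE scaling, no filter, no batch term, the 2 genotypes alone, no mRNA batch 5, no footprint batch 1 and each library left out. The script was also run on simulated data as a check of the code, and no result above rests on that run. Depth gives every member at least 131 counts in each library.

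The labels' batch numbers pair libraries, and batch was kept in the models. After centring on genotype, the 24 mRNA pairs of different genotypes in 1 batch correlated across genes with a median of 0.22 (21 above 0.1). The 72 pairs of different batches had a median of -0.12 (25 above 0.1). In footprints the medians were 0.25 over 20 pairs (16 above 0.1) and -0.10 over 63 (13 above 0.1). No library repeated another: over all pairs of an assay, chi-square divided by its degrees of freedom was at least 4.81 in mRNA and 7.79 in footprints.

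The naming rule takes all 8 members in every measure and contrast, and where none was called some are given as a range. It also takes from the pathway lists up to 6 called genes per measure and contrast by smallest adjusted p, and 3 genes of most similar pattern for each paralog. Members, lists and rules were chosen with earlier results of these data known. A gene of the excitatory neuron marker list is not reported here. Gene positions and promoters come from RefSeq (GRCm38.p6).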

Additional observations from a re-analysis of the deposited data

Results flagged for a closer look

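Of 48 groups of 4 or 5 libraries tested for a library far from the others (Dixon's test at the 95% level), 3 had one, and chance alone flags about 1 group in 20. Cyfip1 mRNA in FXS library 1 was lowest of 4 at 80.2 CPM, with the nearest of the others at 109 CPM. Nufip2 mRNA in FXS library 1 was highest of 4 at 44.2 CPM, with the nearest at 30.9 CPM. Nufip2 mRNA in DKO library 1 was highest of 4 at 50.9 CPM, with the nearest at 27.3 CPM. All 3 libraries belong to batch 5, in which these 2 genes stood apart in every genotype.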

How the results depend on the processing

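The number of paralogs and partners called moved in 3 comparisons. With DESeq2 it was 1 in footprints of DKO against WT (Fxr1), 1 in TE of FXS against WT (Cyfip2) and 2 in TE of DKO against WT (Fxr1 and Cyfip2). Without the batch term, that is with no replicate block, the last was 0, with Fxr1 at 0.53 and an adjusted p of 0.0857 in edgeR. Leaving out 1 library at a time gave 0 to 1 there. All other counts of called paralogs and partners were 0 in each alternative run. Fmr1 was called in every alternative in mRNA and footprints of FXS against WT, DKO against S6K1 and DKO against WT. In TE it missed the threshold only where batch was dropped, with edgeR adjusted p of 0.158 in DKO against S6K1 and 0.0620 in DKO against WT. TMM factors over each assay's own genes, an alternative chosen after seeing the data, gave Fxr1 a TE change of 0.42 in DKO against WT with an adjusted p of 0.0252. No called change turned its direction, and the cause of the lost calls was not tested. With 3 to 5 libraries a group, real changes may have been missed, and the printed intervals are not limits of detection. Cyfip2 TE in FXS against WT changed by -0.32 (-0.51 to -0.13) and was not called, with an adjusted p of 0.159 in edgeR. The smallest change that could be called was not worked out.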
